A study of Homo sapiens with 18 samples.

Results

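Laminins and the integrins that pair with beta-1 were followed through RNA Seq counts of LNCaP and C4-2 prostate cancer cells. The 9 genes were LAMA1, LAMA3, LAMA5, LAMB1, LAMB2, LAMC1, ITGB1, ITGA2 and ITGA6, out of 60675 genes listed in the files. They were selected on their gene symbols, and LAMA1, LAMC1 and ITGB1 also on their response to R1881 or to knockdown in these libraries. The responses of the 9 genes to R1881 and knockdown are therefore given as descriptions, with standard errors and without a test.

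LNCaP is a human prostate cancer cell line that depends on androgen, and C4-2 is a subline of LNCaP that grows without it. Each line had 3 groups of 3 libraries. One group received a scrambled siRNA pool (siScr) and vehicle, another siScr and the synthetic androgen R1881, and the last siRNA pools against KDM1A and KDM7A together with R1881. KDM1A and KDM7A are histone lysine demethylases, and the last group is called the dual knockdown. R1881 was at 1 nM for 72 h, and the siRNA pools were at 10 nM. All cells were kept in medium with charcoal-stripped serum, which is depleted of steroids. No vehicle group carried the knockdown here, so each knockdown was compared with siScr in the presence of R1881, and neither demethylase was lowered on its own. Each cell model is a single established line.

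Laminins are secreted glycoproteins built from an alpha, a beta and a gamma chain, and they form the network of the basement membrane under epithelia. Cells hold on to that network through integrins, receptors made of an alpha and a beta subunit. ITGB1 is the beta subunit shared by most of the integrins that bind laminins and collagens. In the prostate, basal cells rest on a laminin-rich basement membrane, and ITGA6 serves as a laminin receptor there, with ITGB1 or with ITGB4.

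Promoter sequences of RefSeq (GRCh38.p14) were found for 8 of the 9 genes, in 10 entries, and there was no entry for LAMA1. The 250 bases before the annotated start of 5 genes are shown for the genes that the results turn on. LAMC1 was higher with R1881 in both lines, ITGB1 was higher with the knockdown in C4-2, LAMB1 and LAMB2 differed between the lines in opposite directions, and ITGA6 had the only 1 of the 10 entries with the androgen receptor hexamer. They lie at chr1:183023170-183023419 on the plus strand for LAMC1, chr10:32958231-32958480 on the minus strand for ITGB1, chr7:108003162-108003411 on the minus strand for LAMB1, chr3:49133051-49133300 on the minus strand for LAMB2, and chr2:172427086-172427335 on the plus strand for ITGA6. Sequences run 5′ to 3′ on the strand of the gene. Capitals mark GC boxes (GGGCGG, or CCGCCC on the other strand) and the androgen receptor hexamer (AGAACA, or TGTTCT on the other strand), and overlapping matches were counted separately.
LAMC1: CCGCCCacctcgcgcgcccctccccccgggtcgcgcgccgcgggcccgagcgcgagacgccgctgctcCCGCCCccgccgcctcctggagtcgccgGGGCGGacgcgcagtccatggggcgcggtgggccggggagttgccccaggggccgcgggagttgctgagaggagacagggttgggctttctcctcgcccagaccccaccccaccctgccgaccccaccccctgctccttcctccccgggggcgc
ITGB1: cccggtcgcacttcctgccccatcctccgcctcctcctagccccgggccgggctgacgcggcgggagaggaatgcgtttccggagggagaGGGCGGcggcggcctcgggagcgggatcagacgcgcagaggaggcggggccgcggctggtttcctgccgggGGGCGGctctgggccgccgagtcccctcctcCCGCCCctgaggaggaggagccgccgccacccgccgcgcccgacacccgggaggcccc
LAMB1: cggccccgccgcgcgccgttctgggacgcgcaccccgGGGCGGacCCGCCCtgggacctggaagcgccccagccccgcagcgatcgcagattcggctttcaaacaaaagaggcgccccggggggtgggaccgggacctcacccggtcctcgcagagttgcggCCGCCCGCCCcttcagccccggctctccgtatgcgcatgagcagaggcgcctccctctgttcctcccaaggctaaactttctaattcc
LAMB2: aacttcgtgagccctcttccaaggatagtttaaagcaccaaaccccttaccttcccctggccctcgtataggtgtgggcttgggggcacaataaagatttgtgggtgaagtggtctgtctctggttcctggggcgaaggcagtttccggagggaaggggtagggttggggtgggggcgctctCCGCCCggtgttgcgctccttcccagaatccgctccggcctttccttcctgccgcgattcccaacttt
ITGA6: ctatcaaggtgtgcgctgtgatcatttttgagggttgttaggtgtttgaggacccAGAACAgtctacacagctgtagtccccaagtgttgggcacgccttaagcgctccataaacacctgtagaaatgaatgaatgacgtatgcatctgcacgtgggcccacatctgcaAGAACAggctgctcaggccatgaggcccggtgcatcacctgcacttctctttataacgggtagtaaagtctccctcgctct

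In the entries shown, LAMC1 held 3 GC boxes, ITGB1 3, LAMB1 4 and LAMB2 1. Their GC contents were 79.6%, 78.4%, 70.4% and 58.4% in that order. ITGB1 also had a second entry, at chr10:32935559-32935808, with no GC box and a GC content of 41.6%. The median GC content of all 35116 promoters of the table was 58.0%, and 42.6% of them held a GC box. The second start of ITGA6 held 3 GC boxes and had a GC content of 71.6%. The upstream entry of ITGA6 had no GC box and a GC content of 50.8%. It held 2 copies of AGAACA, a hexamer that 12.4% of all promoters contained on either strand. The other 9 entries of the genes, a second start of ITGA6 among them, did not contain this hexamer. A match is a run of letters and was not tested as a binding site.

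The libraries held 3182604 to 20154243 assigned read pairs, with a median of 18117641, and the smallest was the third C4-2 vehicle library. The titles of the 3 C4-2 vehicle libraries name C4-2 while their cell line field names LNCaP, and they were grouped by title. Of 1036 genes with a log2FC of at least 3 in size between the lines with R1881, these 3 libraries were nearer to C4-2 in 959, 950 and 889, and the LNCaP vehicle libraries in 145, 116 and 127. KDM1A fell by 1.05 on the log2 scale with the dual knockdown in LNCaP and by 3.12 in C4-2, and KDM7A fell by 0.93 and by 2.51. The depletion thus differed between the lines, with interaction terms of -2.04 for KDM1A and -1.56 for KDM7A. KLK3, which encodes prostate specific antigen, rose with R1881 by 3.70 in LNCaP and by 4.16 in C4-2. All 7 luminal markers were at or above 1 CPM in every group, and the basal markers summed to at most 1.60 CPM with KRT5 and TP63 at or near 0. COL1A1 carried most of a fibroblast list of 8.20 to 40.1 CPM, VWF was the only endothelial marker with signal, and the leukocyte marker PTPRC stood at 1.75 to 3.21 CPM in C4-2 vehicle libraries against at most 0.184 CPM elsewhere. The summed leukocyte list stood at 2.04 to 3.21 CPM in C4-2 with vehicle, 0.787 to 1.41 CPM with R1881 and 1.39 to 1.62 CPM with the dual knockdown, where LYZ carried it at up to 1.22 and 1.62 CPM, and at no more than 0.402 CPM in LNCaP. The part of these markers in the results was not tested.

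Values are read pairs per 1000000 (CPM) after TMM scaling of the library totals, and levels of different genes are compared only per kilobase of gene length (CPM per kb). CPM is relative to the total RNA, so less RNA per cell and fewer expressing cells cannot be told apart.

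**Figure D1:**
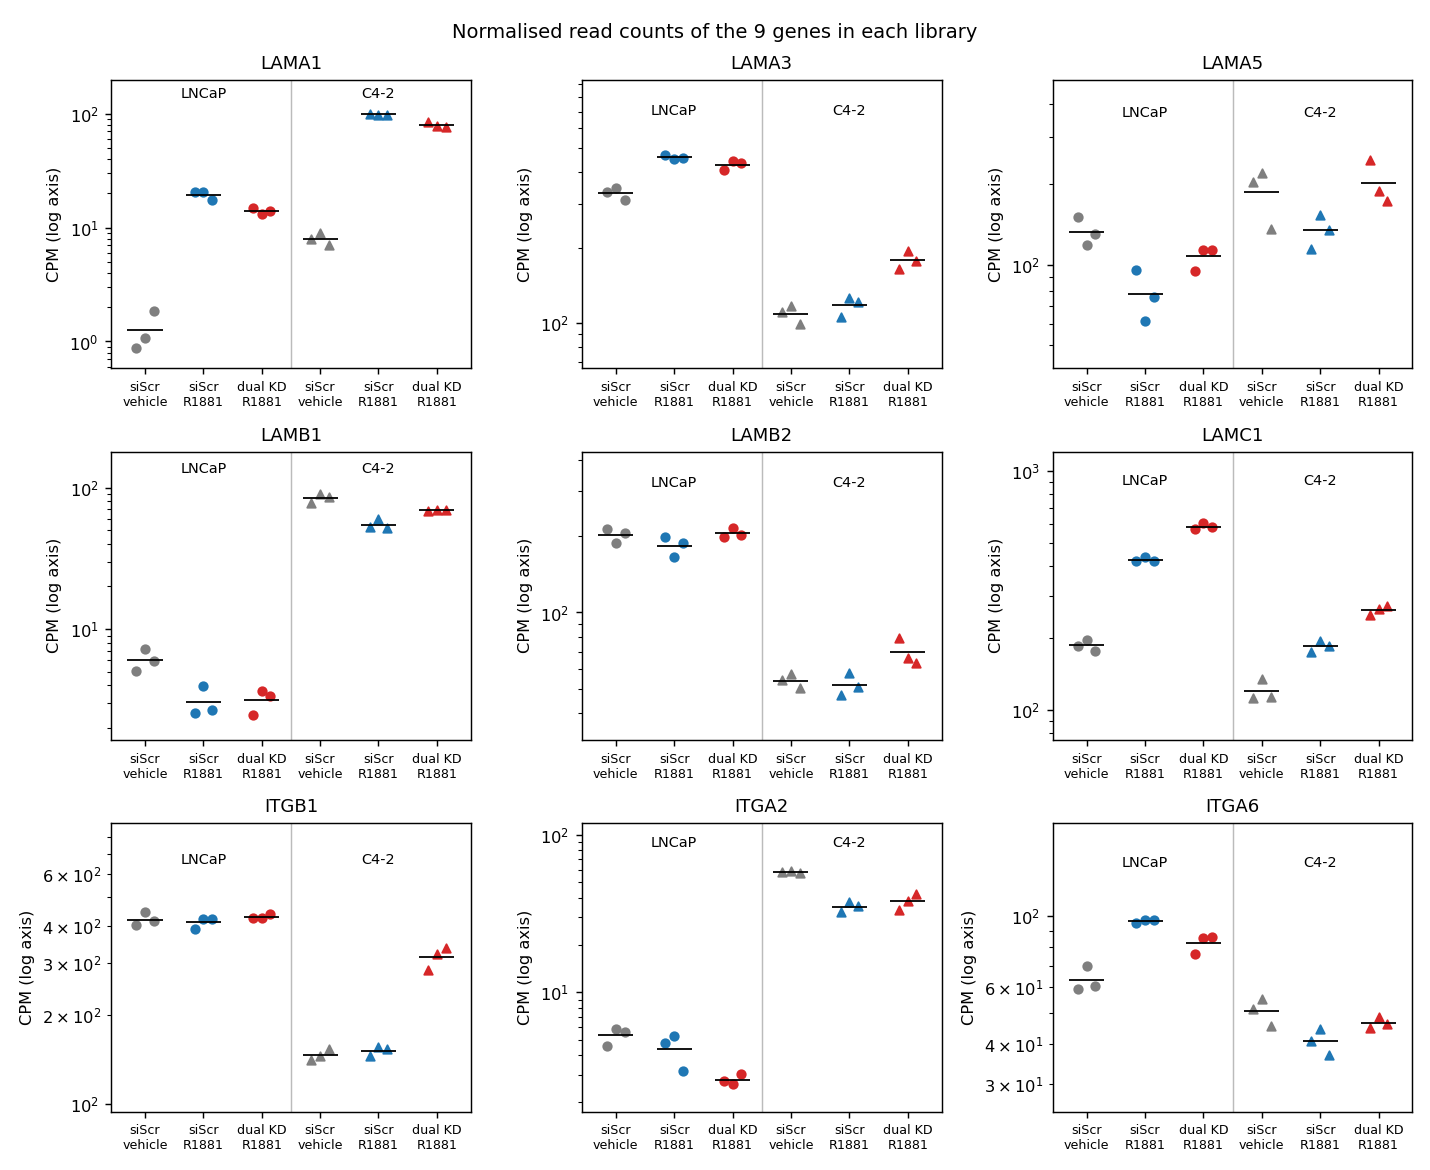
CPM (log axis) of the 9 genes in each of the 18 libraries. Each panel is a gene, each point a library and each bar a group mean. LAMA1 stood at 0.875 to 1.87 CPM in LNCaP with vehicle and at 98.2 to 99.4 CPM in C4-2 with R1881.

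Among the alpha chains, LAMA1 had the widest span. LAMA1 encodes an alpha chain best known from embryonic basement membranes. It lies at chr18:6941744-7117814 on the minus strand (GRCh38, identifier ENSG00000101680). In LNCaP it was at 0.875, 1.07 and 1.87 CPM with vehicle, from 10, 23 and 34 read pairs, at 20.7, 20.5 and 17.4 CPM with R1881, and at 14.9, 13.1 and 13.9 CPM with the dual knockdown. Every R1881 library stood far above every vehicle library, and the knockdown libraries lay between them without overlap. In C4-2 it was at 7.97, 8.94 and 6.99 CPM with vehicle, at 99.4, 98.2 and 98.2 CPM with R1881, and at 84.3, 77.3 and 75.8 CPM with the dual knockdown. The order of the groups was the same in both lines. The log2FC with R1881 was 3.88 ± 0.18 (SE) in LNCaP and 3.58 ± 0.095 in C4-2. With the dual knockdown it was -0.46 ± 0.13 and -0.32 ± 0.076, so the knockdown groups kept a level well above vehicle. The exons of LAMA1 share 10.3% of their length with the opposite-strand gene AP002409.1, and counting did not use strand.

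LAMA3 encodes the alpha chain of the laminins that anchor hemidesmosomes. It lies at chr18:23689443-23955066 on the plus strand (ENSG00000053747). LNCaP libraries had it at 335, 346 and 310 CPM with vehicle, at 469, 453 and 458 CPM with R1881 and at 407, 443 and 437 CPM with the dual knockdown. It was higher with R1881 in all 3 libraries, with a log2FC of 0.46 ± 0.058, and the knockdown log2FC of -0.08 ± 0.057 changed sign in another fit. C4-2 libraries had it at 110, 117 and 99.1 CPM with vehicle, at 106, 126 and 122 CPM with R1881 and at 165, 194 and 177 CPM with the dual knockdown. Here vehicle and R1881 overlapped (log2FC 0.10 ± 0.096), and every knockdown library was above both (log2FC 0.60 ± 0.094 against siScr with R1881).

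LAMA5 encodes the alpha chain most widely found in adult epithelial basement membranes. It lies at chr20:62307955-62367312 on the minus strand (ENSG00000130702) and is the most GC-rich of the genes, at 65.3% of the summed bases of its annotated transcripts. Its LNCaP levels were 150, 118 and 130 CPM with vehicle, 95.6, 61.7 and 76.1 CPM with R1881 and 95.0, 114 and 114 CPM with the dual knockdown. R1881 libraries were all below vehicle libraries (log2FC -0.78 ± 0.13), and the knockdown libraries overlapped the R1881 libraries (log2FC 0.48 ± 0.13, and 0.10 after removal of a trend with GC content). Its C4-2 levels were 204, 220 and 136 CPM with vehicle, 115, 154 and 135 CPM with R1881 and 246, 189 and 173 CPM with the dual knockdown. Vehicle and R1881 overlapped there through the third vehicle library, the shallowest. The log2FC with R1881 was -0.49 ± 0.16, -0.66 without that library and -0.13 after removal of the GC trend. All C4-2 knockdown libraries lay above the R1881 libraries (log2FC 0.58 ± 0.16).

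The beta chains LAMB1 and LAMB2 take the same place in the trimer. LAMB1 lies at chr7:107923799-108003255 on the minus strand (ENSG00000091136). In LNCaP it was low, at 5.08, 7.28 and 5.93 CPM with vehicle, 2.57, 3.95 and 2.70 CPM with R1881 and 2.47, 3.64 and 3.36 CPM with the dual knockdown. The level in C4-2 was 77.2, 89.9 and 85.4 CPM with vehicle, 52.4, 59.6 and 51.8 CPM with R1881 and 67.9, 69.9 and 69.5 CPM with the dual knockdown. Thus R1881 libraries were below vehicle libraries in both lines (log2FC -1.03 ± 0.21 for LNCaP, -0.63 ± 0.087 for C4-2). With the dual knockdown, the C4-2 libraries lay between the other two groups (log2FC 0.34 ± 0.085) and the LNCaP libraries overlapped those of siScr with R1881 (log2FC 0.08 ± 0.22, which changed sign without 1 library).

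LAMB2 lies at chr3:49121114-49133118 on the minus strand (ENSG00000172037) and had overlapping vehicle and R1881 libraries in both lines. The level in LNCaP was 213, 187 and 206 CPM with vehicle, 198, 165 and 188 CPM with R1881 and 199, 215 and 202 CPM with the dual knockdown. C4-2 cells expressed it at 54.1, 57.1 and 50.4 CPM with vehicle, at 47.2, 57.9 and 50.9 CPM with R1881 and at 79.4, 66.4 and 63.4 CPM with the dual knockdown. The LNCaP log2FC with R1881 was -0.15 ± 0.074, and the C4-2 log2FC of -0.06 ± 0.10 changed sign in another fit. Knockdown libraries were above those of siScr with R1881 in both lines, by a log2FC of 0.18 ± 0.074 in LNCaP, which also changed sign, and 0.42 ± 0.099 in C4-2.

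The gamma chain gene LAMC1 lies at chr1:183023460-183145592 on the plus strand (ENSG00000135862), and its product is part of most laminins. LNCaP cells expressed it at 184, 197 and 177 CPM with vehicle, at 418, 438 and 421 CPM with R1881 and at 571, 603 and 581 CPM with the dual knockdown. Levels in C4-2 stood at 112, 134 and 113 CPM with vehicle, at 174, 193 and 185 CPM with R1881 and at 250, 265 and 272 CPM with the dual knockdown. The groups were ordered alike in both lines, vehicle lowest and dual knockdown highest, with no overlap. The log2FC with R1881 was 1.18 ± 0.055 in LNCaP and 0.61 ± 0.088 in C4-2, that is 2.26-fold and 1.53-fold. The knockdown added 0.48 ± 0.054 and 0.51 ± 0.086 on the same scale. LAMC1 and LAMA1 were thus both higher with R1881, while the knockdown libraries stood above R1881 for LAMC1 and below it for LAMA1.

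ITGB1 lies at chr10:32900319-33005792 on the minus strand (ENSG00000150093). Levels in LNCaP stood at 402, 444 and 414 CPM with vehicle, at 391, 422 and 422 CPM with R1881 and at 426, 425 and 439 CPM with the dual knockdown. In C4-2 it was at 141, 146 and 153 CPM with vehicle, at 145, 156 and 154 CPM with R1881 and at 283, 322 and 338 CPM with the dual knockdown. Vehicle and R1881 overlapped in both lines (log2FC -0.05 ± 0.054 and 0.05 ± 0.087, each of which changed sign in another fit). The knockdown libraries of C4-2 were 2.07-fold those of siScr with R1881, a log2FC of 1.05 ± 0.086, and the corresponding log2FC in LNCaP was 0.08 ± 0.054. Even so, ITGB1 in C4-2 with the dual knockdown stayed below every LNCaP library.

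ITGA2 encodes the alpha subunit of a collagen and laminin receptor with ITGB1. It lies at chr5:52989326-53094779 on the plus strand (ENSG00000164171). In LNCaP it was at 4.55, 5.84 and 5.60 CPM with vehicle, at 4.76, 5.27 and 3.16 CPM with R1881 and at 2.73, 2.62 and 3.04 CPM with the dual knockdown. C4-2 libraries had it at 57.8, 59.2 and 57.4 CPM with vehicle, at 32.2, 37.4 and 35.4 CPM with R1881 and at 33.5, 37.8 and 42.01 CPM with the dual knockdown. The C4-2 vehicle libraries were the highest, and those with R1881 and with the dual knockdown overlapped (log2FC 0.10 ± 0.10). The log2FC with R1881 was -0.74 ± 0.10 in C4-2 and -0.31 ± 0.20 in LNCaP, where vehicle and R1881 overlapped. In LNCaP the knockdown libraries were below those of siScr with R1881 (log2FC -0.63 ± 0.21).

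ITGA6 lies at chr2:172427354-172506282 on the plus strand (ENSG00000091409). LNCaP libraries had it at 59.3, 69.7 and 60.8 CPM with vehicle, at 94.9, 97.2 and 97.2 CPM with R1881 and at 76.2, 85.4 and 86.0 CPM with the dual knockdown. Its C4-2 levels were 51.5, 55.3 and 45.5 CPM with vehicle, 40.8, 44.4 and 36.8 CPM with R1881 and 44.7, 48.5 and 45.9 CPM with the dual knockdown. The lines thus went opposite ways with R1881. The log2FC was 0.59 ± 0.071 in LNCaP and -0.34 ± 0.098 in C4-2, a difference of -0.95 (C4-2 minus LNCaP). The knockdown log2FC was -0.21 ± 0.070 in LNCaP (-0.07 after removal of the GC trend) and 0.18 ± 0.095 in C4-2, each toward the vehicle level of its line.

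**Figure D2:**
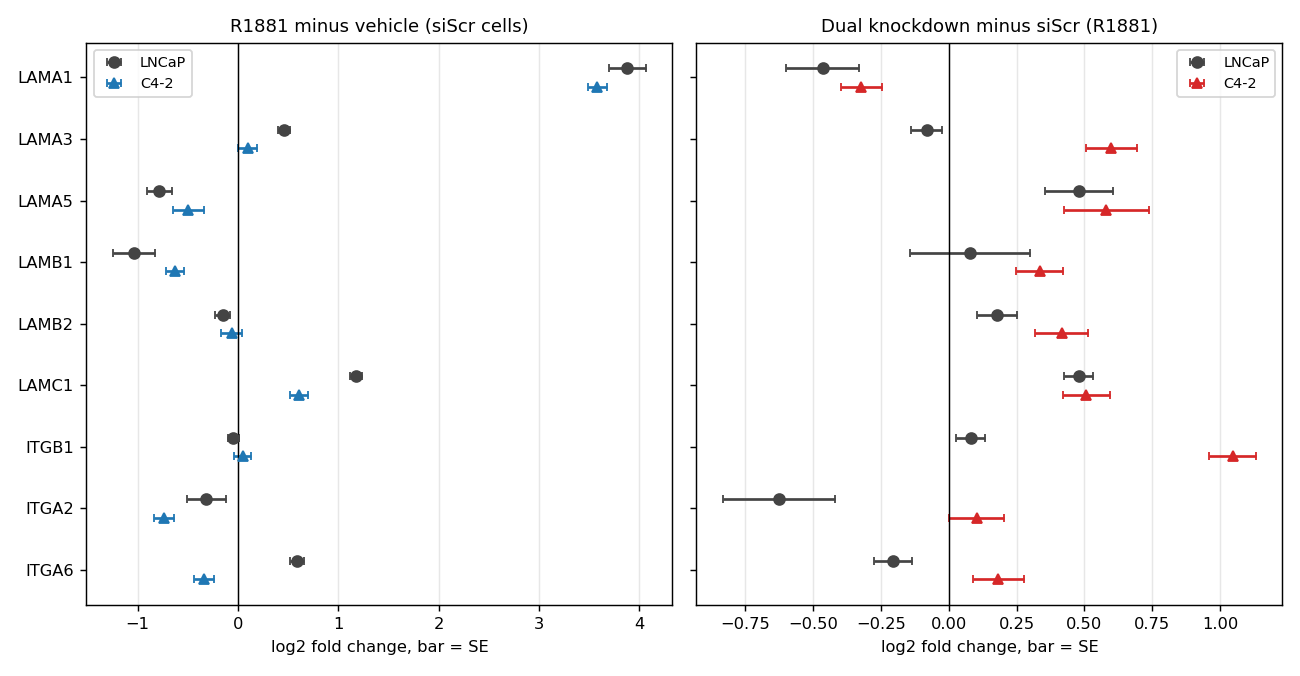
log2FC of the 9 genes with R1881 (against vehicle) and with the dual knockdown (against siScr with R1881), in LNCaP and C4-2. Points are edgeR estimates and bars are 1 SE. LAMA1 stands apart with R1881 (3.88 and 3.58), and ITGB1 with the knockdown in C4-2 (1.05) but not in LNCaP (0.08).

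Counted against a threshold of adjusted p under 0.05 in edgeR's quasi-likelihood test, 4 of the 9 genes were higher and 2 lower with R1881 in LNCaP, where 23.5% of all 17162 genes tested were higher and 23.2% lower. In C4-2, 2 were higher and 4 lower, beside 17.1% and 15.7% of 16965 genes. With the dual knockdown 2 were higher and 1 lower in LNCaP, beside 8.27% and 5.89%, and 6 were higher and 1 lower in C4-2, beside 12.7% and 10.8%. With RLE scaling the LNCaP knockdown count became 2 higher and 3 lower. Over all genes the LNCaP knockdown split of 1420 higher and 1011 lower became 1289 and 1195 with RLE scaling, 1169 and 509 after removal of a trend with gene length, and 813 and 315 after removal of a trend with GC content. The genes were selected on these contrasts, so nothing is read from their counts. The median log2FC of the 9 genes was -0.05 with R1881 in LNCaP, -0.06 in C4-2, 0.08 with the knockdown in LNCaP and 0.42 in C4-2, and the medians of all genes were -0.04, -0.02, 0.00098 and 0.0055. The R1881 and knockdown contrasts of a line share the libraries of siScr with R1881.

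The lines were then compared in siScr cells with vehicle and with R1881, a contrast that the selection rule does not name. The responses that selected LAMA1, LAMC1 and ITGB1 drew on the same libraries, so for these genes the test is not independent of the selection. All 9 genes passed the test in both states, in a fit of all 18 libraries. LAMA1, LAMA5, LAMB1 and ITGA2 were higher in C4-2, and LAMA3, LAMB2, LAMC1, ITGB1 and ITGA6 were lower. Such calls were frequent between these lines. With vehicle 29.4% of 18684 genes tested were higher and 29.5% lower in C4-2, and with R1881 28.6% were higher and 29.7% lower.

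LAMB1 differed most. Its log2FC (C4-2 against LNCaP) was 3.75 with vehicle (edgeR adjusted p = 6.5e-16) and 4.17 with R1881 (edgeR adjusted p = 4.5e-16). ITGA2 followed with 3.42 (10.7-fold, edgeR adjusted p = 4.4e-15) and 3.00 (8.02-fold, edgeR adjusted p = 4.7e-14). LAMA1 was 6.28-fold higher in C4-2 with vehicle (log2FC 2.65, edgeR adjusted p = 3.4e-11) and 5.06-fold higher with R1881 (log2FC 2.34, edgeR adjusted p = 2.8e-14).

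ITGB1, LAMB2, LAMA3 and LAMC1, the most abundant of the 9 per kilobase in LNCaP with vehicle, were lower in C4-2. LAMB2 was 3.71-fold lower with vehicle (log2FC -1.89, edgeR adjusted p = 3.7e-13) and 3.53-fold lower with R1881 (log2FC -1.82, edgeR adjusted p = 3.8e-13). LAMA3 was 3.01-fold lower with vehicle (log2FC -1.59, edgeR adjusted p = 3.2e-13) and 3.91-fold lower with R1881 (log2FC -1.97, edgeR adjusted p = 6.4e-15). ITGB1, the shared beta subunit, was 2.87-fold and 2.72-fold lower (log2FC -1.52 and -1.44, edgeR adjusted p = 6.0e-14 and 9.4e-14). LAMC1 had a log2FC of -0.63 with vehicle (edgeR adjusted p = 1.6e-07) and -1.21 with R1881 (edgeR adjusted p = 2.9e-12).

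LAMA5 and ITGA6 differed least with vehicle. LAMA5 had a log2FC of 0.52 (edgeR adjusted p = 0.0103), its libraries overlapped between the lines, and the call was lost without the second LNCaP vehicle library (0.43), without the second C4-2 vehicle library (0.39) and after removal of a trend with GC content (0.09). Its log2FC with R1881 was 0.79 (edgeR adjusted p = 3.4e-04). ITGA6 had -0.30 with vehicle (edgeR adjusted p = 0.0047), lost after removal of the GC trend (-0.12), and -1.24 with R1881 (edgeR adjusted p = 3.2e-11). Without the third C4-2 vehicle library, the shallowest, all 9 genes passed again. Of 19214 genes tested in that fit, 5483 were higher and 5603 lower in C4-2 with vehicle. The log2FC of the 9 genes with vehicle ran from -1.86 for LAMB2 to 3.74 for LAMB1.

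**Figure D3:**
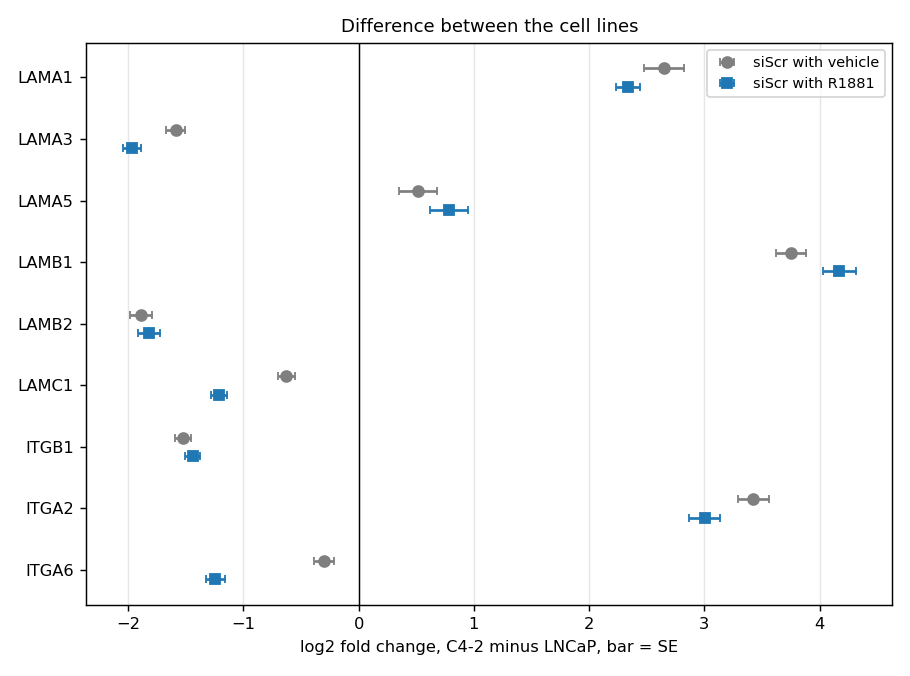
log2FC of the 9 genes in C4-2 against LNCaP, in siScr cells with vehicle and with R1881. Points are edgeR estimates from all 18 libraries and bars are 1 SE. LAMB1 (3.75 and 4.17), ITGA2 (3.42 and 3.00) and LAMA1 (2.65 and 2.34) stand to the right, LAMB2 (-1.89 and -1.82) to the left.

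The difference between the lines in the responses themselves is again a description for these genes. For R1881 it was -0.95 for ITGA6, -0.58 for LAMC1, -0.42 for ITGA2, -0.38 for LAMA3 and -0.31 for LAMA1 (log2FC, C4-2 minus LNCaP), and 0.42 for LAMB1, 0.27 for LAMA5, 0.08 for ITGB1 and 0.07 for LAMB2. With 1 library left out the value of LAMA1 ran from -0.70 (without the third LNCaP vehicle library) to -0.14 (without the second), that of LAMA5 from 0.11 to 0.45 and that of LAMB1 from 0.26 to 0.62, and LAMB2 changed sign (-0.02). Of all 18684 genes tested, 2.73% had groups without overlap that lay on opposite sides in the lines with R1881, as ITGA6 did. For the dual knockdown the 9 values were above 0, with ITGB1 at 0.99, ITGA2 at 0.75, LAMA3 at 0.70 and ITGA6 at 0.41. The others ran from 0.05 for LAMC1 to 0.26 for LAMB1 and LAMB2, and those of LAMC1 and LAMA5 changed sign, LAMC1 in other fits (down to -0.03) and LAMA5 in fits without 1 library (down to -0.05). KDM1A and KDM7A were depleted further in C4-2, as given above, and the part of that depletion in these differences was not tested.

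Per kilobase, ITGB1 was the most abundant of the 9 in all 6 groups. Its LNCaP levels were 69.8 CPM per kb with vehicle, 68.5 with R1881 and 71.5 with the dual knockdown, and those of C4-2 were 24.4, 25.2 and 52.2. In LNCaP with vehicle LAMB2 (29.4 CPM per kb), LAMA3 (24.4), LAMC1 (22.1), ITGA6 (9.68), LAMA5 (9.31), LAMB1 (0.749), ITGA2 (0.674) and LAMA1 (0.080) followed. In that order the ranges of LAMA3 and LAMC1, of ITGA6 and LAMA5, and of LAMB1 and ITGA2 overlapped. LAMC1 moved up this order in the other LNCaP groups and reached 69.6 CPM per kb with the dual knockdown, where its range overlapped that of ITGB1.

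C4-2 had a flatter profile. With vehicle LAMC1 was at 14.2 CPM per kb, LAMA5 at 13.1 and LAMB1 at 10.3, with overlapping neighbours, and LAMA3 (8.05), LAMB2 (7.85), ITGA6 (7.77) and ITGA2 (7.35) overlapped each other in turn, leaving LAMA1 at 0.502 by itself. With R1881 LAMC1 was at 21.9 CPM per kb, and LAMA5 (9.42), LAMA3 (8.70), LAMB2 (7.58), LAMB1 (6.70), ITGA6 (6.23) and LAMA1 (6.21) formed a run in which each range overlapped the next. ITGA2 was last at 4.43. With the dual knockdown the order was LAMC1 (31.2), LAMA5 (14.2), LAMA3 (13.2), LAMB2 (10.2), LAMB1 (8.49), ITGA6 (7.10), LAMA1 (4.99) and ITGA2 (4.77), and the ranges of LAMA5 and LAMA3 and of LAMA1 and ITGA2 overlapped.

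As shares of all chains of a kind, summed per kilobase, the laminin makeup is given as a description, without a test. Among the 5 alpha chains LAMA3 made up 72.2% ± 2.74 (SD, n = 3) in LNCaP with vehicle and 83.6% ± 2.24 with R1881, and LAMA5 27.5% ± 2.82 and 13.3% ± 2.30. In C4-2, LAMA5 was first with vehicle, at 59.8% ± 4.26, with LAMA3 at 37.6% ± 3.94. LAMA1 went from 0.240% ± 0.111 to 3.02% ± 0.297 in LNCaP and from 2.33% ± 0.182 to 25.6% ± 2.43 in C4-2 with R1881. In the R1881-treated C4-2 cells the alpha transcripts were thus spread over LAMA5 (38.5%), LAMA3 (35.7%) and LAMA1. With the dual knockdown LAMA1 made up 2.20% ± 0.259 in LNCaP and 15.4% ± 0.480 in C4-2.

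Among the beta chains LAMB2 made up 96.6% ± 0.602 in LNCaP with vehicle and LAMB1 2.48% ± 0.609. In C4-2 with vehicle LAMB1 led with 55.5% ± 2.00 against 42.2% ± 2.11 for LAMB2, and with R1881 LAMB2 stood at 51.8% ± 1.10 against 45.9% ± 1.21. LAMC1 was at least 99.2% of the gamma chains in each LNCaP group on average. The level in C4-2 was 81.4% ± 1.54 with vehicle, with LAMC3 at 18.3% ± 1.63, and 92.4% ± 0.825 with R1881. The summed gamma chain level was 22.3, 50.7 and 69.8 CPM per kb in LNCaP with vehicle, R1881 and the dual knockdown, against 33.9, 40.7 and 40.2 for the alpha chains and 30.5, 28.3 and 31.3 for the beta chains. Gamma chain transcripts were thus the least abundant of the chain classes with vehicle and the most abundant with R1881 in LNCaP. In C4-2 the gamma sum was 17.5, 23.7 and 33.6, the alpha sum 21.7, 24.4 and 32.4, and the beta sum 18.6, 14.6 and 19.4.

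**Figure D4:**
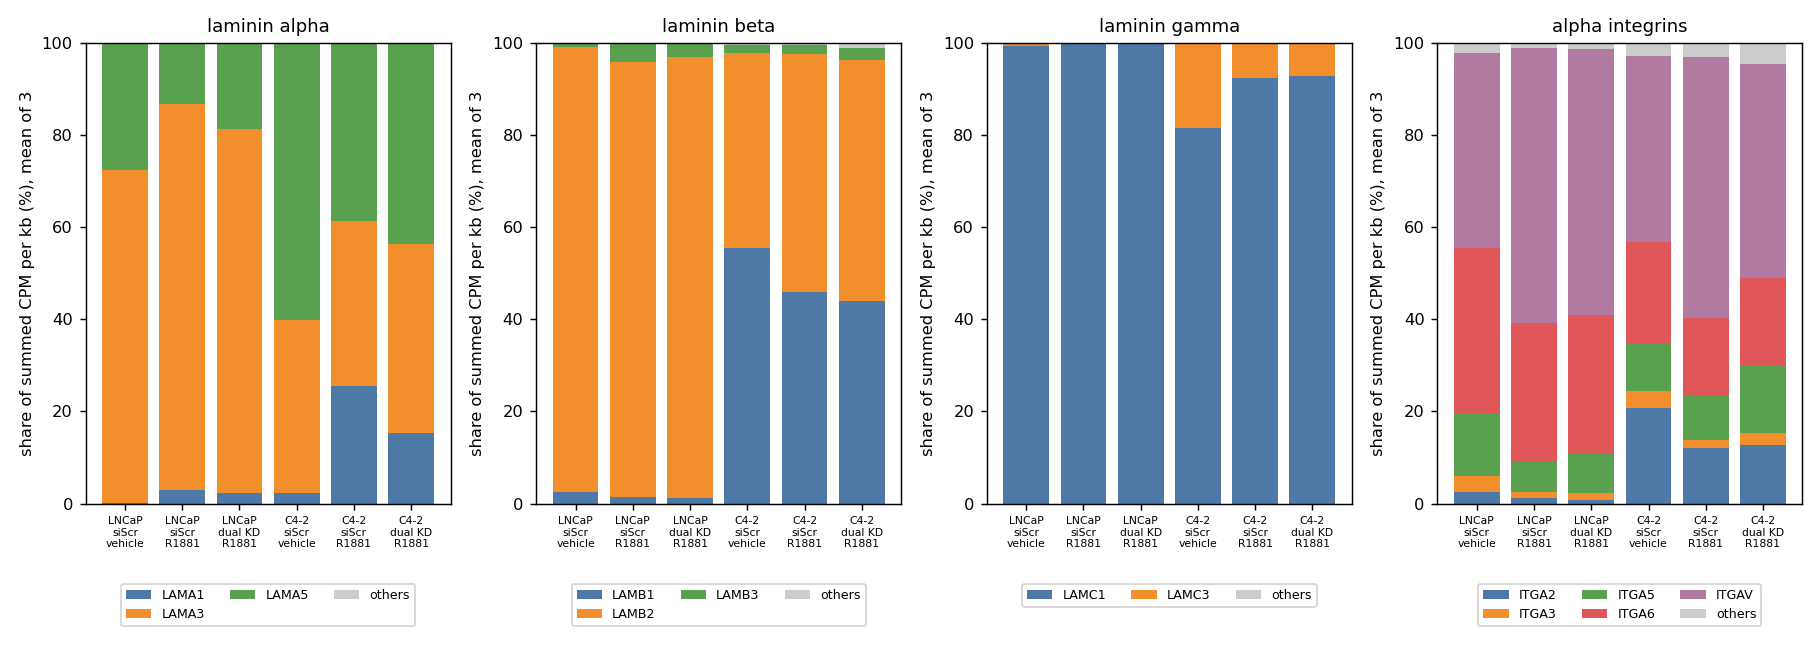
Share (%) of each chain in the summed CPM per kb of the laminin alpha, beta and gamma chains and of 12 alpha integrin subunits, mean of 3 libraries per group. LAMB2 fills 94.4 to 96.6% of the beta chains in LNCaP, and LAMB1 44.0 to 55.5% in C4-2.

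Of 12 alpha integrin subunits that pair with ITGB1, ITGAV had the largest mean share in all 6 groups and ITGA6 the next. ITGA6 made up 35.8% ± 1.62 in LNCaP with vehicle, 30.2% ± 1.38 with R1881 and 30.2% ± 1.38 with the dual knockdown, and 21.8% ± 1.06, 16.9% ± 1.65 and 18.9% ± 0.608 in C4-2. ITGA2 made up 2.50% ± 0.273 in LNCaP with vehicle and 20.7% ± 0.813 in C4-2 with vehicle. ITGAV went from 42.4% ± 0.454 to 59.5% ± 1.95 in LNCaP and from 40.4% ± 1.06 to 56.7% ± 2.92 in C4-2 with R1881. The share of ITGA6 in LNCaP was therefore lower with R1881 although its own level was higher.

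The genes around the 9 were taken from 7 lists of 72 other adhesion genes, which were tested in all contrasts. These lists were chosen with earlier results of these data known, so their shares beside those of all genes are descriptions. With R1881 in LNCaP 14 of 56 tested rose and 15 fell, shares near those of all genes given above. LAMB3, a beta chain of hemidesmosome laminins, rose from 1.25 ± 0.373 to 5.40 ± 0.748 CPM (log2FC 2.13, edgeR adjusted p = 1.4e-06), and TNS3 (1.44) and ITGAV (1.33) also rose. TNS1, an adaptor of focal adhesions (log2FC -2.21), SDC4, a heparan sulphate co-receptor (-1.96), and ITGB4, the partner of ITGA6 in hemidesmosomes (-1.82), fell. ITGB4 was at 3.43 ± 0.629 CPM with vehicle and 0.950 ± 0.275 CPM with R1881.

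With R1881 in C4-2, 10 of 56 rose and 17 fell, beside 17.1% and 15.7% of all genes. ITGA11, a collagen receptor subunit (log2FC 2.71), TNS3 (1.70) and LIMS1 (0.92) rose most, and TNS1 (-1.69), SDC4 (-1.63) and ITGB4 (-1.42) fell most. Of the other beta integrins, 2 of 3 tested fell in LNCaP and 3 of 4 in C4-2, and none rose. Of the 4 genes for integrin inhibitors, 3 fell in LNCaP and 2 in C4-2. Of all genes 23.2% fell in LNCaP and 15.7% in C4-2.

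With the dual knockdown the count was small in LNCaP and larger in C4-2. In LNCaP 7 of 56 tested rose and 3 fell, beside 8.27% and 5.89% of all genes, and the calls in both directions numbered 10. They numbered 5 or 6 without the second or the third library of siScr with R1881. Without the first or the second knockdown library they numbered 3 or 4. The calls over all genes, 1420 higher and 1011 lower of 17162, were fewer in these fits too. Without those siScr libraries they were 510 and 329 of 17863, and 579 and 378 of 17740. Without those knockdown libraries they were 589 and 329 of 17888, and 544 and 296 of 17710. The largest rises were those of CD151 (log2FC 0.50, edgeR adjusted p = 0.0020) and SDC1 (0.47, edgeR adjusted p = 0.0048), both listed among receptors and partners. AGRN (0.43, edgeR adjusted p = 0.0476) was next, a call lost in 6 of 9 fits without 1 library. FERMT2 (-0.46), TLN2 (-0.39) and ITGAV (-0.25) fell, and each lost its call in at least 1 of those fits. After removal of a trend with GC content, the calls for SDC1 (log2FC 0.26), AGRN (0.0073), FERMT2 (-0.30) and ITGAV (-0.08) were also lost.

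In C4-2 23 of 56 rose and 3 fell, beside 12.7% and 10.8% of all genes. The calls in both directions numbered 26, and 17 without the first or the third library of siScr with R1881. The calls over all genes, 2150 higher and 1833 lower of 16965, were fewer in these fits too. They were 1538 and 1230 of 17500 without the first library, and 1356 and 1126 of 17586 without the third. By list, 3 of 3 other laminin chains tested rose, 3 of 7 other alpha integrins and 3 of 4 other beta integrins. So did 4 of 7 receptors and partners and 3 of 10 other basement membrane proteins. Of activators and adaptors 6 of 21 rose, and of inhibitors 1 of 4. The filter on low counts left 3 of 6 other laminin chains and 3 of 7 other beta integrins untested. Mean levels without and with the knockdown were low for LAMB4 (0.493 and 1.44 CPM) and LAMB3 (1.30 and 2.38 CPM). COL7A1, the anchoring fibril collagen, rose from 0.573 ± 0.0392 to 2.12 ± 0.812 CPM (log2FC 1.87, edgeR adjusted p = 0.0016). ITGA1, a collagen and laminin receptor subunit that pairs with ITGB1, rose from 5.85 ± 0.558 to 17.3 ± 1.05 CPM (log2FC 1.56, edgeR adjusted p = 2.1e-06), and TNS3 by a log2FC of 1.42. TLN2 (-1.32), CRK (-0.31) and ITGAV (-0.27) fell, and the call for ITGAV was lost in 4 of 9 fits without 1 library. The median log2FC of the 56 genes was 0.27, against 0.0055 for all genes.

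**Figure D5:**
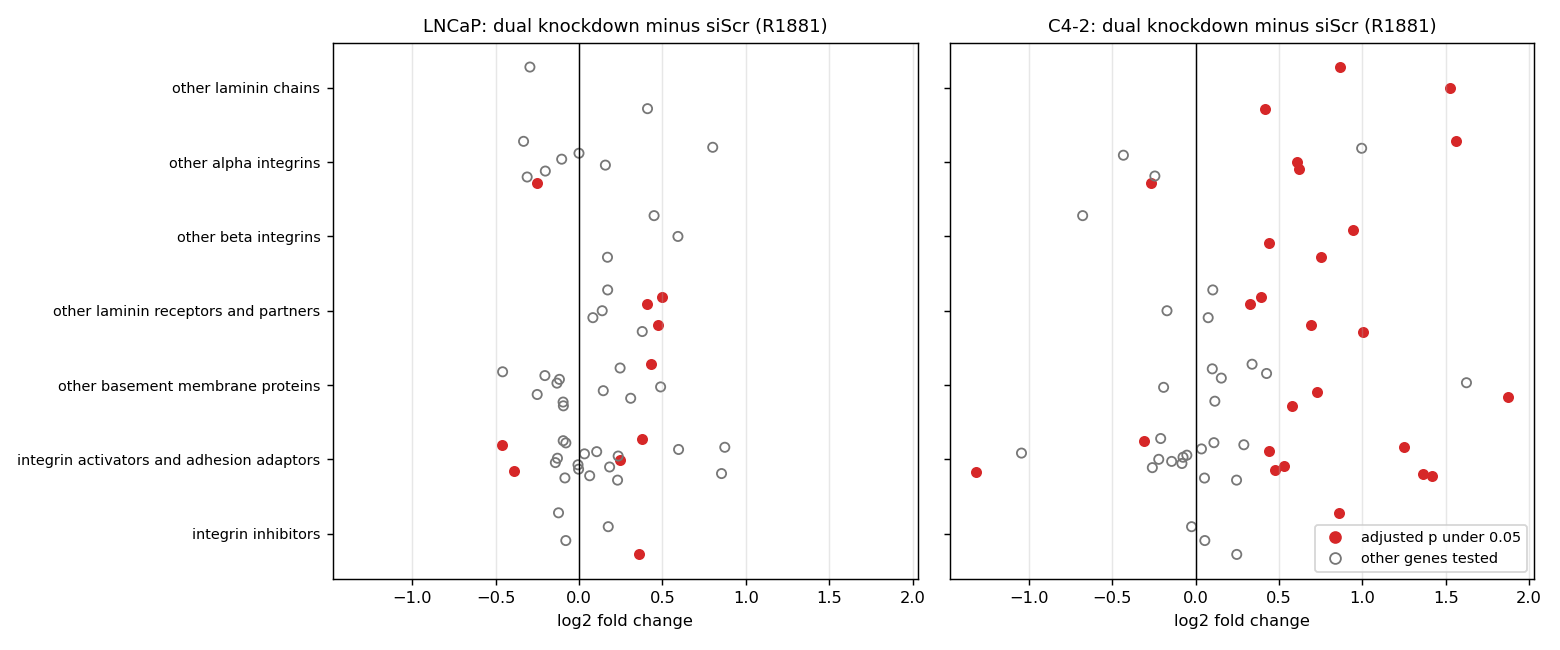
log2FC with the dual knockdown against siScr with R1881 for the genes of the adhesion lists tested in each line, 1 row per list. Each point is a gene, filled where it passed the test. In C4-2 the list genes have a median of 0.27 and 23 of 56 rose, and in LNCaP 7 of 56 rose.

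Between the lines, 28 of 64 list genes tested were higher and 17 lower in C4-2 with vehicle, beside 29.4% and 29.5% of all genes. With R1881, 18 were higher and 21 lower, beside 28.6% and 29.7%. LAMC3, a gamma chain gene, was at 1.22 ± 0.329 CPM in LNCaP and 24.2 ± 1.32 CPM in C4-2 with vehicle (log2FC 4.28, edgeR adjusted p = 2.3e-12), and ITGA1 (2.76) and ITGB7 (2.37) were next. COL7A1 (-4.51), PXDN (-2.42), which crosslinks collagen of the basement membrane, and TLN2 (-1.17) were lower. With R1881, LAMC3 (4.40), ITGB7 (3.37) and ITGA11 (2.99) were higher and COL7A1 (-5.03), PXDN (-2.76) and LAMB3 (-2.04) lower.

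The response to R1881 differed between the lines for 10 of the 64 list genes by the interaction term, 2 higher and 8 lower in C4-2, where 6.05% and 7.95% of all genes did so. For the dual knockdown it differed for 12, 10 higher and 2 lower, where 6.97% and 3.88% of all genes did so.

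The genes most like LAMA1, LAMC1 and ITGB1 were taken by Pearson's r of log2(CPM + 0.5) over the 18 libraries among 14394 genes. The points share their line and treatment groups, so r mostly follows 6 group levels and is given as a description. For LAMA1 they were FGD4 (0.991), FBXW11 (0.990) and RAB3D (0.986). For LAMC1 they were FXYD3 (0.977), PGM3 (0.976) and HMGCS1 (0.975). For ITGB1 they were PREPL (0.995), LAMP2 (0.985) and TTC37 (0.984).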

How the data were processed

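RNA Seq was carried out on poly(A) RNA of 18 LNCaP and C4-2 cultures. The deposited counts were made by the authors from read pairs by way of Trim Galore, STAR on GRCh38 and featureCounts 1.5.0-p1 on the Ensembl 83 annotation, without options for strand or multi-mapping reads, and were not normalised. The methods name the vehicle as DMSO in one place and ethanol in another. From these counts, edgeR 4.0.16 in R 4.3.3 was run with TMM factors, filterByExpr (minimum count 10, minimum total 15), quasi-likelihood F-tests (2-sided), with p-values adjusted by Benjamini-Hochberg over all genes tested. Contrasts within a line used its 9 libraries, and contrasts between lines and interactions used all 18. A gene passed with an adjusted p under 0.05. All 9 genes passed the filter on low counts. Total counts of 3182604 to 20154243 set the precision, and between replicates chi-square per gene was 2.41 to 16.9 over 18 pairs, above counting error. The common biological coefficient of variation was 0.083 in LNCaP, 0.115 in C4-2 and 0.102 in both.

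The genes and lists were chosen with earlier results of these data known. The named genes were the 9, KDM1A, KDM7A and KLK3, up to 3 highest and 3 lowest log2FC per comparison among list genes that passed and averaged at least 1 CPM, and the 3 genes most like LAMA1, LAMC1 and ITGB1 (a pseudocount of 0.5 was added to CPM). Alternatives were RLE factors, DESeq2 1.42.0, no filter, a log2FC of at least 1 as in the study, a fit of the compared groups alone, a block for the replicate number, leaving out single libraries, and removal of trends with gene length and GC content. The fits were tested on simulated data. Tables and plots were made with Python 3.11.15, pandas 2.3.3 and matplotlib 3.10.9.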

Additional observations from a re-analysis of the deposited data

Results flagged for a closer look

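For 3 values of the laminin and integrin genes, every library of one line lay on one side of its comparison group and every library of the other line on the opposite side. These were ITGA6 with R1881, with a line difference in log2FC of -0.95 (C4-2 minus LNCaP), and LAMA3 and ITGA6 with the dual knockdown, with differences of 0.70 and 0.41. Of all 18684 genes tested, 2.73% met the same condition with R1881 and 2.48% with the dual knockdown. The LNCaP knockdown log2FC of LAMA3, -0.08, changed sign in another fit (0.07). That of ITGA6 was -0.21, and -0.07 after removal of the GC trend. In C4-2 the knockdown log2FC of ITGA6 was 0.18. There its lowest knockdown library stood at 44.7 CPM and its highest library of siScr with R1881 at 44.4 CPM. These differences were not tested, because the genes were selected on their responses.

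Among the other adhesion genes, the interaction term of the edgeR fit differed from 0 for several named genes. For R1881 the differences were 0.74 for ZYX, 0.41 for LIMS1, -2.40 for LAMB3, -1.43 for ITGA1 and -0.96 for ITGB5, with edgeR adjusted p of 0.0038, 0.0217, 7.6e-05, 0.0021 and 9.4e-06. LAMB3 went from 1.25 ± 0.373 to 5.40 ± 0.748 CPM in LNCaP and from 1.54 ± 0.153 to 1.30 ± 0.185 CPM in C4-2 (SD, n = 3). The call for LIMS1 was lost in 5 of 18 fits without 1 library.

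For the dual knockdown the differences were 1.92 for ITGA1, 1.38 for TNS3, 1.19 for LAMB3, -1.10 for ITGB2 and -0.91 for TLN2, with edgeR adjusted p of 1.6e-04, 0.0040, 0.0213, 0.0490 and 0.0280. ITGA1 went from 2.33 ± 0.347 to 1.82 ± 0.142 CPM in LNCaP and from 5.85 ± 0.558 to 17.3 ± 1.05 CPM in C4-2. Without 1 library the call was lost in 5 of 18 fits for LAMB3, 14 for ITGB2 and 9 for TLN2. KDM1A and KDM7A were depleted further in C4-2, and the part of that difference was not tested.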

How the results depend on the processing

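No tested result changed direction under an alternative. Of the 2902 single-gene values under alternatives, 2786 kept direction and call, or moved by less than the spread between replicates, 27 moved further, 13 gained and 76 lost a call. Requiring a log2FC of at least 1 left 3 of the laminin and integrin genes with R1881 in LNCaP and 1 in C4-2. With the dual knockdown it left 0 and 1. Of the 56 list genes tested it left 6, 7, 0 and 8 in the same order. Of the 64 tested across lines it left 19 and 19 between the lines with vehicle and R1881. For the line difference in the responses to R1881 and knockdown it left 3 and 4. Over all genes, 974 of 17162 were higher and 1136 lower with R1881 in LNCaP, and 728 and 811 of 16965 in C4-2. With the dual knockdown these were 27 and 22 in LNCaP and 424 and 245 in C4-2. Of 18684 genes, 2074 were higher and 2456 lower in C4-2 with vehicle, and 2010 and 2433 with R1881. The line differences were 373 higher and 435 lower for R1881, and 236 and 135 for knockdown. In LNCaP with the knockdown, the main count of 3 members became 5 with RLE factors or with only the groups compared. The main count of 10 list genes became 5 after removal of the GC trend. Of all genes, 1420 were higher and 1011 lower in the main fit and 1289 and 1195 with RLE factors. These were 1924 and 1285 of 16210 with only the groups compared, and 813 and 315 after removal of the GC trend. For the line difference in the knockdown response, 21 list genes passed after removal of the GC trend, against 12. Of all 18684 genes, 1471 were then higher and 1128 lower, against 1303 and 725. The cause was not tested.

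With 1 library left out, the laminin and integrin genes passing numbered 6 to 7 with R1881 in LNCaP and 4 to 6 in C4-2. With the knockdown they numbered 1 to 5 and 5 to 7. Between the lines they numbered 8 to 9 with vehicle and 9 to 9 with R1881. Of all genes in the same fits, 3645 to 4202 were higher and 3156 to 3782 lower with R1881 in LNCaP. With R1881 in C4-2 the ranges were 2163 to 3448 and 1839 to 3170. With the knockdown they were 510 to 1704 and 296 to 1234 in LNCaP. In C4-2 they were 1356 to 2499 and 1126 to 2169 with the knockdown. These fits tested 17422 to 17888 genes in LNCaP and 17388 to 17586 in C4-2. The LNCaP knockdown count of the laminin and integrin genes was 1 without the second library of siScr with R1881. It was also 1 without the second or the third knockdown library, and 5 without the second vehicle library. Of all genes, 1420 were higher and 1011 lower with every library. Without the second library of siScr with R1881 these were 510 and 329. They were 544 and 296 without the second knockdown library and 1065 and 663 without the third. Without the second vehicle library they were 1702 and 1234. List genes passing numbered 27 to 31 and 23 to 31 with R1881, and 3 to 14 and 17 to 30 with the knockdown. They numbered 38 to 46 and 32 to 42 between the lines. For the line difference in the responses they numbered 7 to 14 and 9 to 18. Between the lines, 4961 to 5600 of all genes were higher in C4-2 and 4881 to 5656 lower with vehicle. With R1881 these were 4823 to 5542 and 5070 to 5740. The line difference ran from 780 to 1314 genes higher and 1176 to 1776 lower for R1881. For the knockdown it ran from 854 to 1921 and 414 to 1617. These fits tested 19214 to 19747 genes.

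Replicate numbers gave no clear sign of pairing. Deviations of same-numbered libraries correlated between -0.09 and 0.16, and only 2 of 18 pairs were above 0.1. With 3 libraries per group this check cannot exclude pairing. With the replicate number as a block, 6, 6, 3, 7, 9 and 9 of the laminin and integrin genes passed. List genes passing numbered 29, 27, 11, 30, 36, 35, 9 and 15. These counts were all within 1.5 times those without the block. In the same order 3970, 3078, 1580, 2297, 4846, 4780, 1134 and 1347 of all genes were higher. Lower were 3926, 2713, 966, 2025, 4604, 4707, 1497 and 933. Genes tested numbered 17162 in LNCaP, 16965 in C4-2 and 18684 across lines. The smallest library held 3182604 read pairs, so its low genes are the least precise.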
